A study of Mus musculus with 6 samples.

Results

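The subject is a group of 10 genes of the elastic fibre, taken by name from the 49671 genes of the count table: Eln (elastin), the fibrillins Fbn1 and Fbn2, the fibulins Fbln1, Fbln2, Fbln5, Efemp1 and Efemp2, and the EMI-domain genes Emilin1 and Emid1. All 10 were found, and all 10 passed the filter on low counts. RNA came from embryonic pancreata of C57BL/6J mice at 14.5 dpc, either controls or pancreata treated with the protein methyltransferase inhibitor AMI-5 at 10 µM, with 3 libraries in each group. The study's title names the effect of the compound on pancreas differentiation as its question. Whether replicates derive from distinct cultures, animals or pools is not stated, and p-values therefore reflect variation among the sequenced libraries alone, possibly technical. Growth and treatment conditions are referred by the labels to publications that were not used here.

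An elastic fibre has a core of cross-linked elastin on a scaffold of fibrillin microfibrils. Fibulins are secreted glycoproteins that link tropoelastin, microfibrils, lysyl oxidases and basement membranes, and emilins sit where elastin meets the microfibril. Such matrix is known from mesenchyme and vessel walls. RNA from whole organs does not tell fewer cells of a type from less RNA per cell.

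Libraries held 12445425 to 13321899 gene counts in controls and 22894312 to 24805188 with AMI-5, so levels in controls rest on fewer reads. The labels name the Ultra I kit for A samples and Ultra II for the rest. Control titles carry A and treated titles Am, so that, read literally, kit and treatment cannot be told apart. Processed pseudogenes took 0.371% to 0.405% of counts in controls and 2.91% to 3.15% with AMI-5. The test covered 17519 genes and called 4820 up and 4652 down in treated libraries, a split that became 3962 and 5883 when scaling used library totals alone.

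Fibulin-2, elastin and Emid1 were lower with AMI-5, and fibulin-3 (Efemp1) and fibulin-5 were higher. Thus 2 of the 10 genes rose and 3 fell (edgeR's quasi-likelihood F test, adjusted over all tested genes by Benjamini-Hochberg, threshold 0.05), where 27.5% of all genes tested rose and 26.6% fell. The 5 called genes were also those whose libraries did not overlap between the groups, a state that 61.9% of all genes tested and 59.3% of protein-coding ones shared. The share of members called was near the background of 54.1% (50.8% of protein-coding genes, 20.1% higher and 30.6% lower), so the count itself says nothing particular about these genes. A log2 change of at least 1 was reached upwards by 1 member, Efemp1 (13.4% of all and 3.91% of protein-coding genes tested). It was reached downwards by 2 members, Fbln2 and Emid1 (2.24% and 2.05%). The members were chosen with earlier results of these data known, so these shares cannot show an excess among them. Trends of each library with GC content and gene length were also taken out, either over all genes (all-gene trend removal) or over protein-coding genes (coding trend removal). The members called higher then came to 6 and 5, beside 4825 of 17481 and 2834 of 14565 genes tested, and those called lower to 2 in both, beside 4733 and 3186 genes. Without trend removal the median log2 change of the 10 genes, AMI-5 over control, was -0.05, against -0.0013 over all genes tested and -0.06 over protein-coding genes tested, a class that holds all 10.

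**Figure D1:**
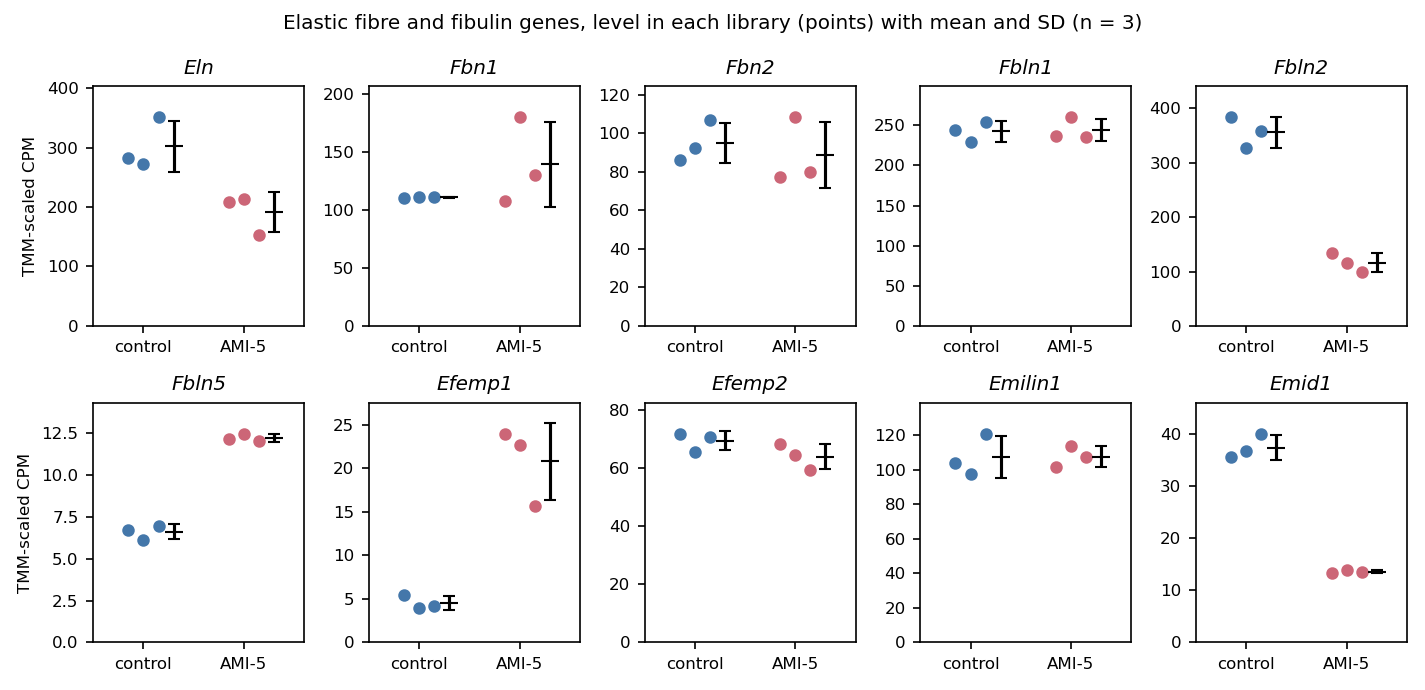
Level of each of the 10 genes in TMM-scaled CPM (linear axes from 0) in every library, with the mean and SD of 3 libraries beside the points. The AMI-5 libraries lie below all controls for Eln, Fbln2 and Emid1 and above all controls for Fbln5 and Efemp1, and the groups overlap for the other 5 genes.

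Elastin itself, whose product tropoelastin forms the core of the fibre (ENSMUSG00000029675, chromosome 5, 134702593 to 134747323, mm10), was at 283, 272 and 351 CPM in control replicates 1, 2 and 3 and at 208, 214 and 152 CPM in treated replicates 1, 2 and 3. CPM are read counts relative to the TMM-scaled library size. Every treated library lay below every control, and the spread within either group was wide. The log2 change was -0.66 (SE 0.16, 95% interval -1.06 to -0.25, adjusted p = 0.0168), a level 1.58-fold lower. The call ended with all-gene trend removal (-0.03, adjusted p = 0.901) and with coding trend removal (-0.23, adjusted p = 0.365).

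The fibrillins build the microfibril, and Fbn2 is known mainly from embryonic tissue. Fbn1 was at 110, 111 and 111 CPM in controls and at 108, 179.9 and 130.3 CPM with AMI-5. The controls were almost equal, and treated replicate 2 stood well above the rest. Its log2 change of 0.33 (95% interval -0.17 to 0.83) did not pass the test (adjusted p = 0.216). It was at 0.13 without treated replicate 2 (adjusted p = 0.194). It passed without treated replicate 1 (0.49, adjusted p = 0.0154) and after all-gene (0.62, adjusted p = 0.0197) or coding trend removal (0.51, adjusted p = 0.0414). A gene on the opposite strand, Gm9913, overlaps 20.1% of the exon bases of Fbn1, and whether strand was used in counting is not stated.

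Fbn2 was at 86.1, 92.04 and 106.6 CPM in controls and at 77.3, 108 and 79.9 CPM with AMI-5, with overlapping groups and a log2 change of -0.10 (95% interval -0.46 to 0.26, adjusted p = 0.597). Without treated replicate 2 it was at -0.25 and passed (adjusted p = 0.0296), and with all-gene trend removal it was at 0.21. treated replicate 2 was the highest treated library for both fibrillins. That library also had a summed level of 10 endothelial markers of 644 CPM, against 469.9 and 451.5 in treated replicates 1 and 3, and of 6 erythroid markers of 177 CPM, against 70.4 and 59.4. It was likewise the highest treated library for the mesenchyme (10950 CPM, against 9790 and 9537), smooth muscle and leukocyte lists. For pancreatic epithelium it was the lowest (9657 CPM, against 11070 and 11460), as for neural and glial markers. The part of these cells in the fibrillin values was not tested. Within a library, Fbn2 per kilobase of gene length came to 0.904, 0.957 and 1.11 times Fbn1 in controls and to 0.830, 0.696 and 0.710 times with AMI-5. These ratios did not overlap, and their mean log2 difference of -0.41 gave an exact two-sided permutation p of 0.1, the smallest that 3 against 3 libraries allow.

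Among the short fibulins, Efemp1 (fibulin-3), a fibulin that binds the protease inhibitor TIMP3, rose most (ENSMUSG00000020467, chromosome 11, 28853204 to 28926743, mm10). It was at 5.42, 3.94 and 4.17 CPM in controls and at 23.96, 22.7 and 15.7 CPM with AMI-5, a log2 change of 2.21 (SE 0.19, 95% interval 1.78 to 2.63, adjusted p = 5.73e-06), or 4.61-fold. The control values rest on 70, 54 and 55 reads, the treated ones on 534, 510 and 372 reads. Fbln5 (fibulin-5), which tethers tropoelastin to cells and is required for elastic fibres in mice (ENSMUSG00000021186, chromosome 12, 101746565 to 101819055, mm10), went from 6.74, 6.12 and 6.97 CPM to 12.2, 12.5 and 12.04 CPM. The treated libraries were nearly equal and all well above the controls, with a log2 change of 0.89 (SE 0.11, adjusted p = 3.86e-05).

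Efemp2 (fibulin-4), which brings lysyl oxidase to tropoelastin, was at 71.8, 65.7 and 70.7 CPM in controls and 68.2, 64.5 and 59.4 CPM with AMI-5. The groups overlapped, and its log2 change of -0.12 (95% interval -0.26 to 0.03) did not pass (adjusted p = 0.164). It was called lower with libraries scaled by totals alone (-0.21, adjusted p = 0.0255) and higher after all-gene trend removal (0.17, adjusted p = 0.0309). Per kilobase, Efemp1 came to 0.0982, 0.0779 and 0.0766 times Efemp2 in controls and to 0.456, 0.458 and 0.344 times with AMI-5, a mean log2 difference of 2.31 (exact two-sided permutation p = 0.1, the smallest possible here).

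The long fibulins went apart. Fbln2 (fibulin-2), a protein of basement membranes, vessel walls and microfibrils (ENSMUSG00000064080, chromosome 6, 91212455 to 91272540, mm10), fell from 384, 327 and 359 CPM to 134, 116 and 98.3 CPM. The highest treated library was far below the lowest control, with a log2 change of -1.62 (SE 0.11, 95% interval -1.87 to -1.36, adjusted p = 4.45e-06), a level 3.07-fold lower. Fbln1 (fibulin-1), the other long fibulin, was at 244, 229 and 255 CPM in controls and at 237, 260.1 and 236 CPM with AMI-5. Its groups overlapped, and the log2 change was 0.01 with a 95% interval of -0.13 to 0.15 (adjusted p = 0.897). It was called higher after all-gene (0.21, adjusted p = 0.012) and coding trend removal (0.24, adjusted p = 0.007). In controls the pair had about the same level per kilobase, with Fbln2 at 1.08, 0.979 and 0.966 times Fbln1. With AMI-5 these ratios were 0.388, 0.306 and 0.286, a mean log2 difference of -1.64 (exact two-sided permutation p = 0.1, the smallest possible here).

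Of the EMI-domain genes, Emilin1, which lies at the surface of elastin and limits release of active TGF-β, was at 104, 97.4 and 121 CPM in controls and 102, 114 and 107 CPM with AMI-5. The log2 change was 0.0041 (95% interval -0.17 to 0.18, adjusted p = 0.971). It moved to 0.68 with all-gene trend removal (adjusted p = 6.09e-06) and to 0.48 with coding trend removal (adjusted p = 0.00036). Emid1, which encodes a secreted protein with an EMI domain and collagen-like stretches (ENSMUSG00000034164, chromosome 11, 5106265 to 5152257, mm10), fell from 35.5, 36.7 and 40.02 CPM to 13.2, 13.9 and 13.6 CPM. Spread was small in both groups, and the log2 change was -1.46 (SE 0.08, adjusted p = 2.37e-08), a level 2.75-fold lower. It stayed called at -0.51 with all-gene and -1.03 with coding trend removal.

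**Figure D2:**
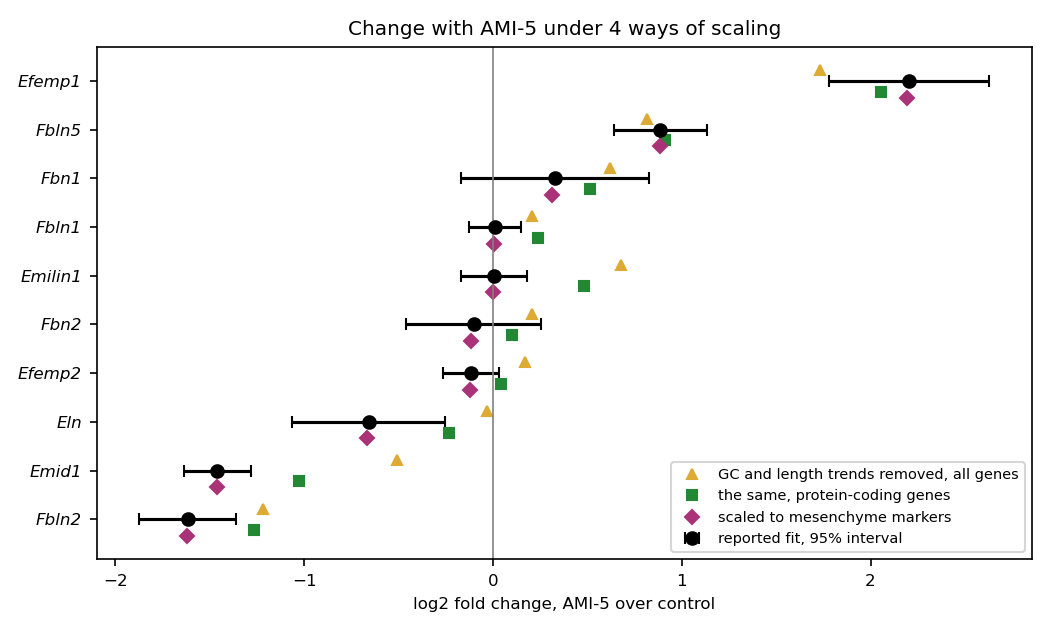
Log2 change (AMI-5 over control) of each gene with its 95% interval, and the value after all-gene (triangles) or coding trend removal (squares), or with libraries scaled to summed mesenchyme markers (diamonds). Fbln2, Emid1, Eln, Fbln5 and Efemp1 keep their side of 0 under all 4, and Eln is at -0.66 before and at -0.03 after all-gene trend removal.

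GC content ran with direction among the called genes. The longest annotated transcript had a GC content of 57.02% for Fbln2, 58.8% for Eln and 61.9% for Emid1, which were lower, and of 44.9% for Efemp1 and 46.9% for Fbln5, which were higher. Emilin1, with 61.1%, was not called. All-gene trend removal moved the log2 changes of all 5 called genes towards 0, the higher ones to 1.73 (Efemp1) and 0.82 (Fbln5), and left the calls of 4 of the 5 called genes in place. Coding trend removal moved Fbln5 slightly away from 0 (0.91) and the other called genes towards 0, with Efemp1 at 2.055. Both removals also take out length trends, so the part of GC content alone was not tested.

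To show start sites of the 2 genes that rose and of Emid1, stretches upstream of a RefSeq transcript start and outside the gene as counted (build GRCm38.p6) are printed 5′ to 3′ along the gene. Capitals mark the GC box GGGCGG, the SMAD box CAGAC and the AP-1-like word TGANTCA, on either strand.
Efemp1, chr11:28852955-28853203, plus strand: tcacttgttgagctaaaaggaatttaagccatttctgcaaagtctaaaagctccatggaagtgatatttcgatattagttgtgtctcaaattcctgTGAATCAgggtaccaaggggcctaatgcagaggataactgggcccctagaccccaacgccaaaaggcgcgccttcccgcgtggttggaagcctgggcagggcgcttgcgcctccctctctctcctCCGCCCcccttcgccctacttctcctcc
Fbln5, chr12:101819120-101819369, minus strand: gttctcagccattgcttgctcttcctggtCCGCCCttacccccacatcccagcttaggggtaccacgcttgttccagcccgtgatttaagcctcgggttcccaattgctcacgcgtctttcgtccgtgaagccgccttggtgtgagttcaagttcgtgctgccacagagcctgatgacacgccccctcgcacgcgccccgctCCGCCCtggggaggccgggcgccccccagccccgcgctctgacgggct
Emid1, chr11:5152258-5152480, minus strand: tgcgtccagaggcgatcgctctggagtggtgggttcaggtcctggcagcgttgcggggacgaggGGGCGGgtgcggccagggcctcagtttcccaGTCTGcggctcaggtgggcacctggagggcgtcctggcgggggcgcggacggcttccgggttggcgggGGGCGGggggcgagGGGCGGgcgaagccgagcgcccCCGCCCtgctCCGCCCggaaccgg
The stretch of Emid1 held 5 matches to the GC box and 1 to the SMAD box, that of Fbln5 held 2 GC boxes, and that of Efemp1 held 1 GC box and 1 TGANTCA. None of the 3 held TATAAA. Fbln5 and Emid1 each have another RefSeq start, whose window of 250 bases has no base outside the gene as counted and is not printed. That window held 2 matches to CAGAC and 0 GC boxes for Fbln5, and 0 of either for Emid1. Among 32851 upstream windows of 250 bases, 32.7% held the GC box, 42.2% CAGAC, 6.75% TGANTCA and 12.4% TATAAA. A match describes letters only and marks no binding.

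Per kilobase of gene length, the order of levels in controls was Fbln2 (55.9 CPM per kilobase), Fbln1 (55.5), Eln (37.3), Efemp2 (26.2), Emilin1 (21.7), Emid1 (12.9), Fbn1 (9.14), Fbn2 (9.06), Efemp1 (2.21) and Fbln5 (1.13). Neighbours in that order overlapped between libraries only for Fbln2 with Fbln1 and for Fbn1 with Fbn2. The order rests on the length of merged exons, which was 5829 bases for Fbln5 and 2037 for Efemp1. In CPM, the control mean of Fbln5 (6.61) was above that of Efemp1 (4.51). With AMI-5, Fbln1 led (55.9), followed by Efemp2 (24.2), Eln (23.6), Emilin1 (21.8) and Fbln2 (18.2), whose neighbours all overlapped from Efemp2 down to Fbln2. Fbn1 (11.5), Efemp1 (10.2) and Fbn2 (8.44) came next and overlapped in turn, ahead of Emid1 (4.70) and Fbln5 (2.10). As a share of the summed level of the 10 genes per kilobase, Fbln2 went from 24.2% ± 1.52 to 10.1% ± 1.28, Eln from 16.1% ± 1.38 to 13.0% ± 1.44, and Efemp1 from 0.959% ± 0.165 to 5.62% ± 0.902 (SD, n = 3). Fbln1 took 23.7% to 24.3% in controls and 29.8% to 32.7% with AMI-5. These shares sum to a fixed total, so a gene's share moves also when the others change.

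**Figure D3:**
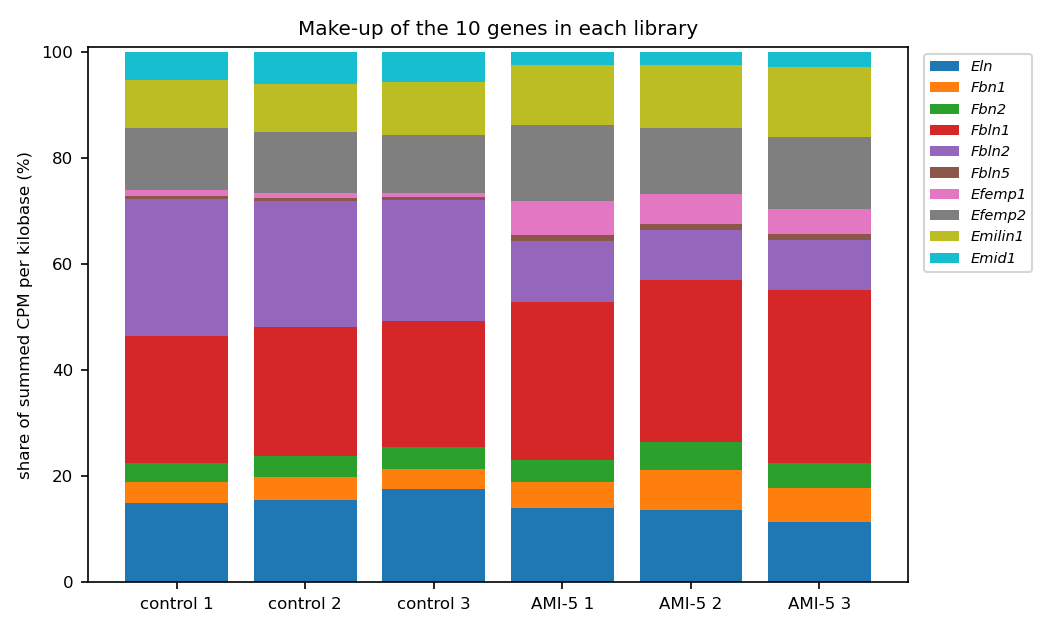
Share of each gene in the summed level of the 10 genes (CPM per kilobase, in %), 1 stacked bar per library. Fbln2 takes 22.9% to 25.9% in controls and 9.34% to 11.6% with AMI-5.

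Genes that work with the elastic fibre were drawn from 5 lists of 53 genes, of which 52 were tested. Together 15 rose and 9 fell, at a median log2 change of 0.12, against the background of 27.5% and 26.6% over all genes and of 20.1% and 30.6% over protein-coding genes, the class of all 52. Without treated replicate 1, 19 rose and 5 fell. Of 6 cross-linking and copper-supply genes, 2 rose and 1 fell. Lox, the lysyl oxidase that cross-links elastin and collagen, went from 50.9, 55.7 and 57.1 CPM to 103, 130.4 and 90.99 CPM (log2 change 0.99, SE 0.13, adjusted p = 0.00042). Every treated library had a higher level of Lox than every control. Loxl2, known for cross-links in collagen IV, was at 1.23 (adjusted p = 8.54e-06), but 45.0% of its 50-base sequences (50-mers) lie in another annotated gene. Loxl1, which serves elastin in particular, was at -0.24 (adjusted p = 0.0351), a call that ended without control replicate 3 (-0.13), treated replicate 1 (-0.21) or treated replicate 2 (-0.20), and that turned to 0.60 after all-gene trend removal (adjusted p = 5.18e-05).

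Of 15 microfibril-associated genes, 3 rose and 4 fell, where 20.1% of protein-coding genes tested rose and 30.6% fell. The microfibril glycoprotein gene Mfap2, the highest of the list per kilobase, fell from 129, 117 and 144 CPM to 94.5, 87.6 and 84.8 CPM (log2 change -0.55, SE 0.08, adjusted p = 9.78e-05). Its relative Mfap5 rose from 0.388, 0.656 and 0.682 CPM to 2.74, 3.12 and 2.45 CPM (2.25, SE 0.28), on 5, 9 and 9 reads in controls and 61, 70 and 58 with AMI-5, so the groups of both genes were apart, in opposite directions. Among proteases and protease-like proteins that bind fibrillin, Adamts10 was at -0.86 and Adamtsl4 at -0.69, while Adamts17 was at 0.52 and Adamtsl2 at 0.99. All-gene trend removal ended the call of Adamtsl4 (-0.09, adjusted p = 0.685) and kept those of Mfap2 (-1.29), Adamts10 (-0.41) and Adamts17 (0.83) at other sizes.

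Of 7 relatives of the fibulins and emilins, 2 rose and 2 fell, where 20.1% of protein-coding genes tested rose and 30.6% fell. Emilin2 went from 22.1, 19.8 and 18.3 CPM to 31.4, 34.8 and 39.6 CPM (log2 change 0.81, adjusted p = 3.64e-05), and Emilin3 from 8.76, 9.77 and 14.2 CPM to 4.40, 5.66 and 4.98 CPM (-1.12, adjusted p = 0.000359). Thus Emilin2 was higher and Emilin3 lower in every treated library, beside an Emilin1 that was not called. With all-gene trend removal Emilin3 was at -0.48 (adjusted p = 0.0408). Hmcn1, which encodes the large fibulin relative hemicentin-1, was at 0.59 (adjusted p = 0.0343), and Mmrn2, a multimerin of endothelium, at -0.34 (adjusted p = 0.037). The call of Hmcn1 ended without control replicate 1 (0.47), control replicate 3 (0.54), treated replicate 2 (0.42) or treated replicate 3 (0.60), and that of Mmrn2 without any library other than treated replicate 2.

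Of 10 ligands and integrin receptors, 3 rose and 1 fell, where 20.1% of protein-coding genes tested rose and 30.6% fell. Tgfb2 and Tgfb3, whose latent forms are stored on microfibrils, were at 0.62 (SE 0.06, adjusted p = 6.69e-06) and 0.52 (adjusted p = 0.0003), and 8.79% of the 50-mers of Tgfb3 are shared. All-gene trend removal gave Tgfb3 0.79. Itgb3, the partner of the αv chain that fibulin-5 and fibrillin can bind, went from 8.68, 10.3 and 9.40 CPM to 17.2, 24.1 and 15.7 CPM (1.00, adjusted p = 0.000448). Itgb6, an epithelial chain that activates latent TGF-β, was at -0.42 (adjusted p = 0.00182). Itgb1, the most abundant of the list, was at 0.15 (adjusted p = 0.053). Its call or its sign changed in 13 of 21 alternatives. It passed as higher with DESeq2 (0.17, adjusted p = 0.0185) and limma voom (0.15, adjusted p = 0.0452). With all-gene trend removal its sign turned (-0.02).

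Of 14 tested elastin-degrading proteases and protease inhibitors, 5 rose and 1 fell, where 20.1% of protein-coding genes tested rose and 30.6% fell. Cela2a, a pancreatic elastase made by acinar cells, went from 816, 869 and 411 CPM to 5004, 3904 and 5503 CPM (2.78, SE 0.37, adjusted p = 0.00364), with 15.6% of its 50-mers shared. Ctss, an elastin-cleaving cathepsin known from macrophages, went from 36.6, 38.5 and 36.8 CPM to 64.3, 75.3 and 66.2 CPM (0.88, adjusted p = 8.36e-07), and Ctsl was at 0.65 (26.3% of 50-mers shared). With all-gene trend removal Ctss turned to -0.35 (adjusted p = 0.00336) and Ctsl lost its call (0.09, adjusted p = 0.197). Of 8 leukocyte markers, 5 were higher and 0 lower, where 27.5% of all genes tested rose and 26.6% fell. Their summed level was 413 to 432 CPM in controls and 604 to 647 CPM with AMI-5. The part of leukocytes in the values of Ctss was not tested. Mmp2 was at 0.32 (adjusted p = 0.00116), and at 0.69 with all-gene trend removal. Mmp14, which activates its proenzyme, was at -0.25 (adjusted p = 0.0257), a call that ended without control replicate 3 (-0.16), treated replicate 1 (-0.21) or treated replicate 3 (-0.23), and with all-gene (-0.07, adjusted p = 0.5) or coding trend removal (-0.04, adjusted p = 0.708).

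**Figure D4:**
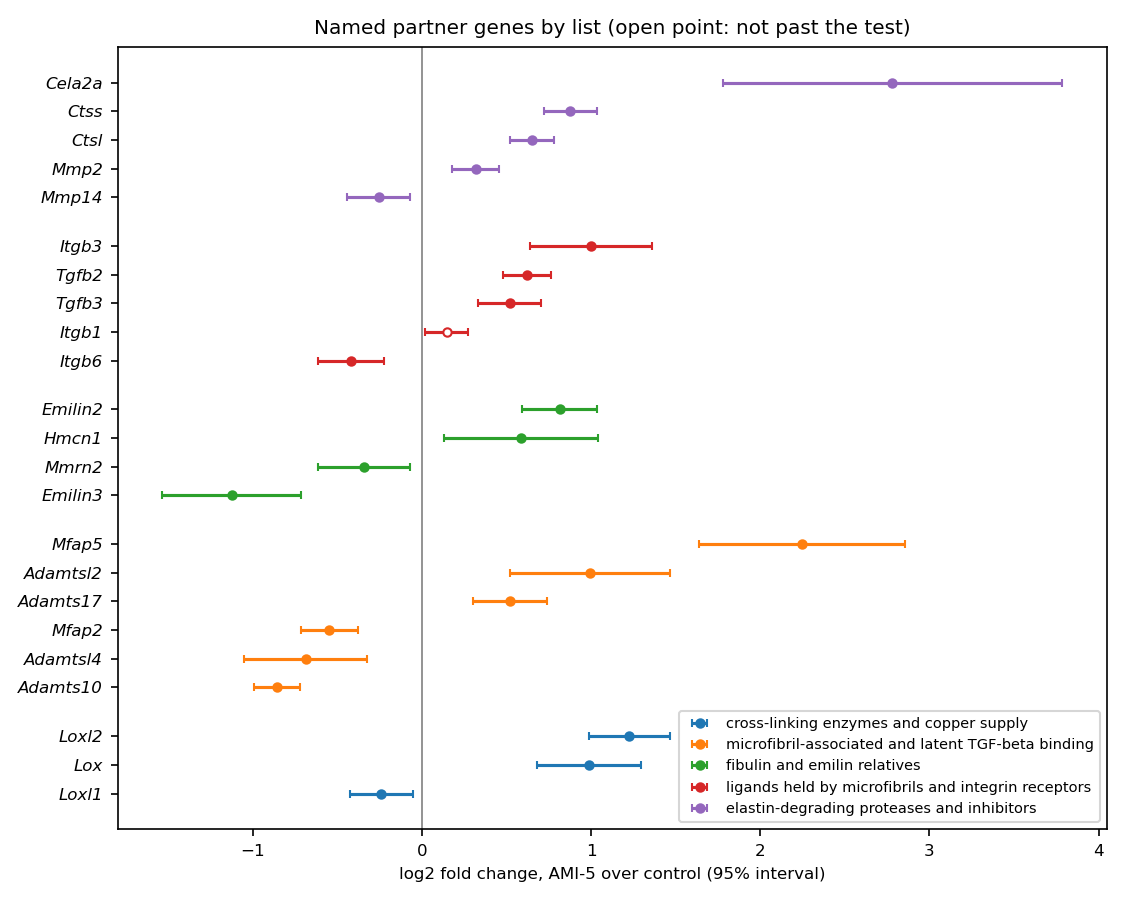
Log2 change (AMI-5 over control) with 95% interval of the partner genes that the naming rule took, grouped by list. Each list holds genes on both sides of 0, from Emilin3 at -1.12 to Cela2a at 2.78, and the open point (Itgb1) did not pass the test.

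Markers of the cells that a whole pancreas can hold were read beside these genes. The counts of markers called stand beside 27.5% of all genes tested that rose and 26.6% that fell. Among protein-coding genes tested these shares were 20.1% and 30.6%. The summed level of 16 mesenchyme markers was 9852 to 10340 CPM in controls and 9537 to 10950 CPM with AMI-5, with 6 of them higher and 6 lower. With libraries scaled to that sum, the log2 change was -1.62 for Fbln2, -1.46 for Emid1, -0.67 for Eln, 0.88 for Fbln5 and 2.20 for Efemp1. Of 9 smooth muscle and pericyte markers, 0 were higher and 5 lower, at 351 to 382 CPM in sum in controls and 297.5 to 319.6 CPM with AMI-5. Their part in the values of Eln and Fbln2 was not tested. The other lists held 2 higher and 0 lower of 9 for mesothelium (299.9 to 349 and 269 to 340.4 CPM in sum), 0 and 3 of 10 for endothelium (558 to 685 and 451.5 to 644 CPM), and 2 and 5 of 10 for pancreatic epithelium (7981 to 10100 and 9657 to 11460 CPM). They held 2 and 3 of 8 for neural and glial cells (158 to 167 and 116 to 138 CPM) and 3 and 1 of 5 tested for the erythroid list (12.8 to 31.2 and 59.4 to 177 CPM).

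**Figure D5:**
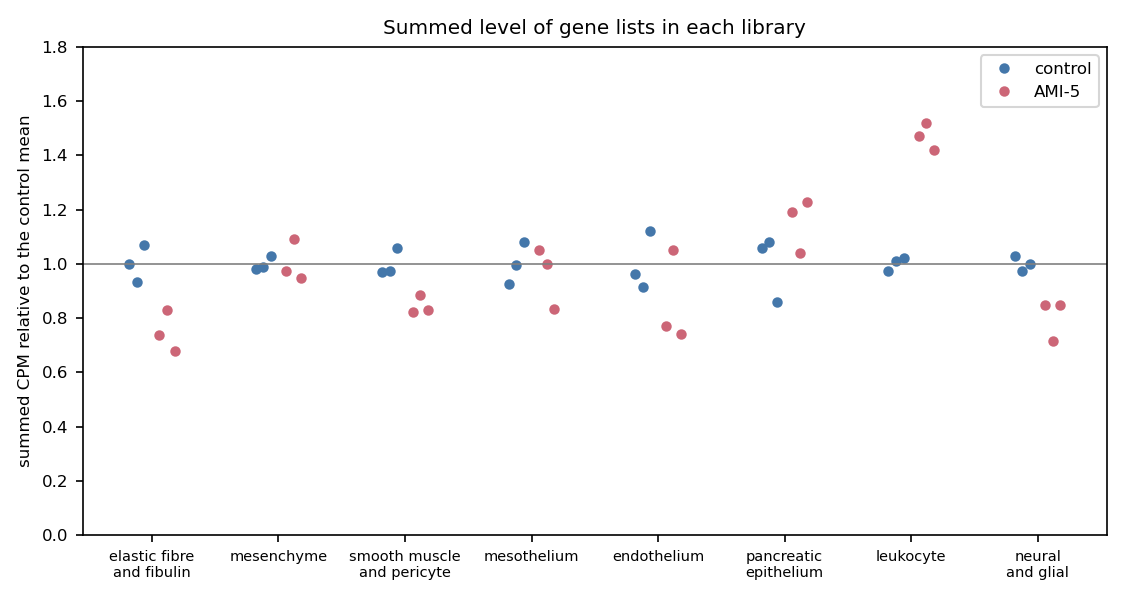
Summed CPM of the 10 elastic fibre and fibulin genes and of each marker list in every library, divided by the control mean of that list (linear axis from 0; the erythroid list is left out). The 10 genes together lie at 0.679 to 0.83 of the control mean with AMI-5, the mesenchyme list at 0.949 to 1.09, and the leukocyte list above 1.4. Among the 10 genes, Fbln2 (mean 356 CPM in controls and 116 with AMI-5) and Eln (302 and 191) fell most in CPM. The median log2 change of the 10 was -0.05. Collagen genes hold most of the mesenchyme sum.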

How the data were processed

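Read counts per gene, not normalized, were used as deposited by the authors in 1 table for 6 libraries (3 control, 3 AMI-5). The submitters' processing notes list the build mm10 and the tools GSNAP 2018-05-30, featureCounts 1.6.2 and bcl2fastq 2.19.1. For strand and multi-mapping reads, the counting settings are not given in the sources used. The gene length column, another deposited value in bases of merged exons, served for levels per kilobase and length trends. The 92 spike-in rows (1 read in all) were left out. Symbols, GC content and shared 50-mers came from GENCODE M21, promoters from RefSeq (8 members matched).

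The test was the two-sided quasi-likelihood F test of edgeR 4.0.16 (R 4.3.3) with TMM, filterByExpr, a robust fit and no term beyond group, adjusted by Benjamini-Hochberg over 17519 genes (threshold 0.05), after a check on simulated data. SE and 95% intervals come from the F statistic. Within-family ratios were compared by exact permutation tests. Alternatives were other scalings, filters and gene sets, DESeq2 1.42.0, limma 3.58.1 voom, thinning, GC and length trends taken out per library (splines with 5 degrees of freedom, then TMM again), a replicate block and each library left out.

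All 10 members are named. From each partner list, up to 3 genes past the threshold in each direction with the smallest p and the highest gene per kilobase are named, and from each marker list the 2 highest, which are given here only within their list's counts and sums. The members and lists were chosen with earlier results of these data known. Within groups, chi-square over degrees of freedom was 7.23 to 17.5 between libraries, above counting noise, and each library was kept as 1 sample.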

Additional observations from a re-analysis of the deposited data

How the results depend on the processing

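Over 21 alternatives, Fbln2 (-1.72 to -1.22), Emid1 (-1.55 to -0.51), Fbln5 (0.79 to 0.94) and Efemp1 (1.72 to 2.39) kept their direction and their call, and Eln kept it in 17. Replicate numbers showed no sign of pairing the libraries (correlations of same-numbered deviations from the group means of -0.058, -0.038 and -0.048, and no library correlated best with its own number). With 3 libraries in each group these deviations are tied to each other, so the correlations cannot exclude pairing. With the replicate number as a block, 4704 genes were higher and 4482 lower, and Eln was at -0.66 with adjusted p = 0.104. With the block together with GC and length trend removal, 6 members were higher, as with that removal over all genes alone (6, and 23 partner genes higher), against 5 with removal over protein-coding genes (5 partner genes lower, 2834 genes higher in all). In the fit of unique-sequence genes, which tests fewer genes and leaves out Fbn1, 2495 were higher and 2733 lower. Partner genes called lower ranged from 5 to 9 with 1 library left out.

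Signs turned as follows. Trend removal over all genes, over protein-coding genes and with the block gave Fbn2 0.21, 0.10 and 0.20, Efemp2 0.167, 0.0415 and 0.166, and Loxl1 0.60, 0.17 and 0.61. Over all genes, without and with the block, it gave Ctss -0.353 and -0.356, and Itgb1 -0.0242 and -0.0251. Scaling by totals alone gave Fbln1 -0.0823 and Emilin1 -0.0906. With 1 library left out Fbln1 ranged from -0.034 to 0.0505 and Emilin1 from -0.0662 to 0.0953. The cause was not tested. With no filter, or with mesenchyme scaling, the estimated prior degrees of freedom were unbounded, so the p-values of those fits, among them that of Fbn1 with mesenchyme scaling (0.31, adjusted p = 0.00615), rest on a common spread for nearly all genes. Among the 10 genes, Efemp1 and Fbln5 had the fewest control reads, with 54 to 92 per library.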
